A study of Homo sapiens with 14 samples.

Results

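The cytoplasmic ribosomal protein genes were taken as all protein coding genes whose symbol is RPL or RPS followed by a number and an optional letter, X, L or numeral, together with RPLP0, RPLP1, RPLP2 and RPSA. Kinases of the RPS6K family, Y-linked copies and pseudogenes were not members. This gave 85 genes of the 60587 in the deposited tables, on 21 chromosomes: 3 of the P stalk, 43 others of the large subunit, 31 of the small subunit, and 8 paralogs, which are second copies of a core gene (RPL3L, RPL7L1, RPL10L, RPL22L1, RPL26L1, RPL36AL, RPL39L and RPS27L).

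Cartilage pellets were made in chondrogenic medium from WA01, the H1 line of human embryonic stem cells. RNA-seq libraries numbered 4 on day 21, 5 on day 30 and 5 on day 45 of the culture. All groups share this 1 line, and the labels name no genotype, added compound or undifferentiated control. Whether replicates came from separate cultures is not stated in the labels; p-values therefore cover the spread among these libraries alone, which may be technical.

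Ribosomal proteins pack around the ribosomal RNAs to form the small subunit, which decodes mRNA, and the large subunit, which joins amino acids. In most cells their mRNAs are among the most abundant, and the proteins are made in near equal amounts. Most of these mRNAs in vertebrates begin with a C followed by an unbroken run of pyrimidines, the 5′ terminal oligopyrimidine (TOP) tract, through which mTOR signalling controls how actively they are translated.

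The start regions show this shared tract and which members the reference shows without it. Each line gives the 25 bases before and the 20 bases from a RefSeq transcription start (GRCh38.p14), 5′ to 3′ on the strand of the gene. For a gene with several listed starts, the start with the longest tract is shown. Capitals mark a run that begins with C at the first transcribed base and goes on with at least 4 more C or T. The first 6 genes are members whose values are given in detail later, and the others are 3 pairs of a core gene and its paralog.
RPLP0: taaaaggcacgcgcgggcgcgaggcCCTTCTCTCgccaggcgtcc
RPS18: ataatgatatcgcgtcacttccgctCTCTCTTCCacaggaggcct
RPSA: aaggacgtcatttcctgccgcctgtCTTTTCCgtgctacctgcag
RPL10A: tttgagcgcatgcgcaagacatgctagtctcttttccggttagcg
RPL36: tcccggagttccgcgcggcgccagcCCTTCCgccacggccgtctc
RPL17: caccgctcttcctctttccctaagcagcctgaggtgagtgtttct
RPL22: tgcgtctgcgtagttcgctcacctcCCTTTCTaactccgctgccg
RPL22L1: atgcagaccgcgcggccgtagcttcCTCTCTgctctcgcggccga
RPS27: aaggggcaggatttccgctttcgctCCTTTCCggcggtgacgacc
RPS27L: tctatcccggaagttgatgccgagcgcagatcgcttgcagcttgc
RPL26: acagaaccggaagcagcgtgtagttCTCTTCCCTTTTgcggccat
RPL26L1: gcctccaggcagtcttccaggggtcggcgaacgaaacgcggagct

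These stretches lie at chr12:120201092-120201136 (minus strand), chr6:33272050-33272094 (plus strand), chr3:39406695-39406739 (plus strand), chr6:35468376-35468420 (plus strand), chr19:5690270-5690314 (plus strand), chr18:49492446-49492490 (minus strand), chr1:6199576-6199620 (minus strand), chr3:170870176-170870220 (minus strand), chr1:153990737-153990781 (plus strand), chr15:63157458-63157502 (minus strand), chr17:8383174-8383218 (minus strand) and chr5:172958704-172958748 (plus strand), in the order of the lines. A start region was matched for 68 members, and each gene was counted by its longest tract at any listed start. On the gene's own strand, 47 of these members (69.1%) had the tract. The share was 1404 of 27305 genes in the table (5.14%) and 6 of 69 mitochondrial ribosomal protein genes (8.70%), taken by symbol. Of the core members 46 of 62 had it. Of the paralogs RPL22L1 alone did, 1 of 6. RPL10A has a pyrimidine run, but it begins a few bases after the start shown. A missing match says only that these letters are not at any listed start.

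Levels are compared between genes in TPM, a level scaled by transcript length and by library. Mean levels over the 14 libraries ran from 276 TPM for RPS26 to 7107 TPM for RPS27 among the 77 core members, a 25.7-fold range with a median of 2403 TPM and quartiles of 1830 and 3575 TPM. The highest mean levels were those of RPS27, a zinc-binding protein of the small subunit, RPL37A at 6852 TPM and RPS18 at 6371 TPM. RPS26, RPL22 at 506 TPM and RPS28 at 646 TPM were the lowest core members. The 6 paralogs that were detected in most libraries lay lower than nearly all core members, from 17.1 TPM for RPL39L to 333 TPM for RPL36AL. RPL3L, known from striated muscle, averaged 0.0443 TPM, and RPL10L, known from the testis, was listed at 0 in every library. Those 2 failed the low-count filter and were not tested.

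**Figure D1:**
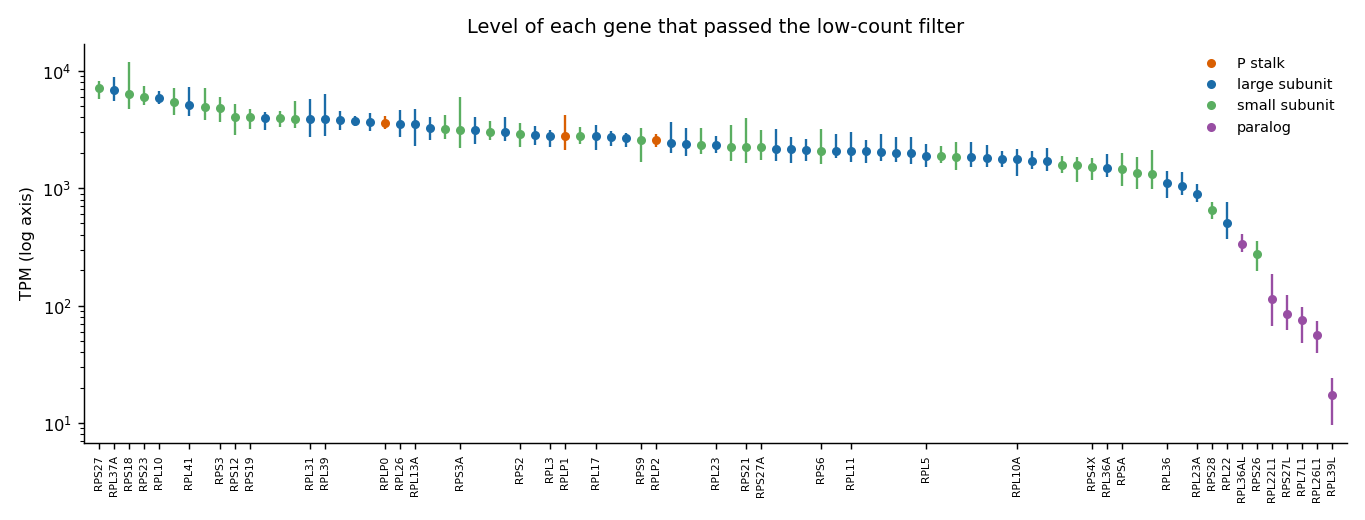
Mean TPM of the 83 genes that passed the low-count filter, on a log axis, ordered from high to low. Points are means over 14 libraries, vertical lines run from the lowest to the highest library, and colours give the class; most genes described in the text are named. Core genes lie between 276 and 7107 TPM, and all paralogs other than RPL36AL lie below every core gene.

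The order of levels was much alike on the 3 days. Across the 77 core members, the day means of log2 TPM had a Pearson correlation of 0.969 between day 45 and day 21, 0.980 between day 30 and day 21, and 0.975 between day 45 and day 30; genes are not independent replicates, and each gene's value rests on the same length and read assignment on every day. The 10 highest members made up 26.3 ± 0.230%, 26.3 ± 0.629% and 25.6 ± 0.386% of the summed member TPM on days 21, 30 and 45 (SD, n = 4, 5 and 5). The P stalk made up 4.11 ± 0.104%, 4.08 ± 0.205% and 4.19 ± 0.0950%. The ratio of summed large subunit TPM to summed small subunit TPM was 1.21 ± 0.0246, 1.23 ± 0.0371 and 1.26 ± 0.0258. The day 45 libraries lay just below all day 21 libraries in the share of the 10 highest members, and the ranges of the days overlapped for the stalk and for the subunit ratio.

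Library totals ran from 18183776 to 33660704 expected counts. Summed TPM of 6 chondrocyte markers ran from 16451 to 19847 on day 21, 29492 to 76040 on day 30 and 60276 to 90014 on day 45, with all 6 at or above 1 TPM in a library. Summed TPM of 3 markers of cycling cells ran from 165 to 230.03, 27.5 to 43.4 and 38.2 to 56.0. The marker sums of muscle, neuron, endothelium, pluripotent cells and blood stayed at or below 28.8 TPM in all libraries and that of epithelium at or below 104 TPM, with POU5F1, NANOG, PECAM1, CDH5, EPCAM, CDH1 and PTPRC below 1 TPM throughout. Of the same lists, DPPA4, KDR, KRT8 and KRT18 reached 1 TPM in a library. So did 3 of 4 muscle and 3 of 4 neuron markers. The pluripotent sum ran from 17.4 to 22.4 TPM on day 21 and 0.51 to 1.34 TPM on day 45. The endothelial sum ran from 8.63 to 12.2 TPM on day 21 and 1.94 to 3.09 TPM on day 45. In bulk RNA, fewer cells of a type and less RNA per cell cannot be told apart. The library titled day 45 replicate 1 carries a treatment label of 30 days; it was kept at day 45.

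The members together took 5.73 ± 0.548% of all expected counts on day 21, 7.06 ± 2.16% on day 30 and 4.75 ± 0.361% on day 45 (SD, n = 4, 5 and 5). By library the shares were 6.15, 5.86, 4.93 and 5.97% on day 21, 4.67, 5.14, 7.03, 9.25 and 9.19% on day 30, and 4.14, 5.11, 4.84, 4.79 and 4.87% on day 45. Day 30 replicates 3, 4 and 5 stood above every other library, while day 30 replicates 1 and 2 lay within the range of the other days. Within day 30, the share of COL2A1, the main collagen of cartilage, was 14.6, 13.8, 13.3, 10.1 and 7.26% in replicates 1 to 5. MTCO1P12, a pseudogene of mitochondrial origin that was singled out with its values known, took 0.649, 1.22 and 1.49% of counts in day 30 replicates 3, 4 and 5, against 0.229 to 0.548% in the other 11 libraries, and its part was not tested. Over the 3 days, COL2A1 took 3.80 ± 0.338%, 11.8 ± 3.07% and 13.8 ± 2.35% of counts. With the counts of COL2A1, ACAN and FN1 left out of the total, the member share was 6.08 ± 0.603%, 8.27 ± 2.19% and 6.22 ± 0.269%. Summed member TPM was 211490 ± 12291, 235386 ± 34778 and 201543 ± 10524. On that scale too, day 30 replicates 3 to 5, at 237267 to 273150, were above all other libraries. Ribosomal protein mRNAs are short, with a median deposited length of 645 bases against 2224 bases over all genes tested. In day 30 replicates 3 to 5 the median gap between length and effective length, which follows the fragment size, was 161 to 207 bases, against 210 and 259 bases in day 30 replicates 1 and 2. Day 45 replicate 4, at 184 bases, and day 21 replicate 4, at 204 bases, had gaps in the same range with member shares of 4.79% and 5.97%. The part of fragment size in the day 30 shares was not tested.

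**Figure D2:**
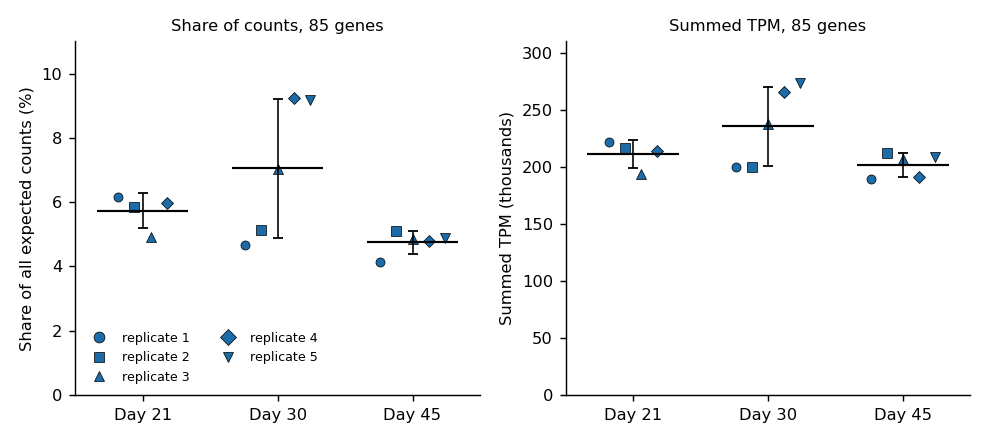
Share of all expected counts (left, in percent) and summed TPM (right) of the 85 genes in each library. Points are libraries, marked by replicate, horizontal lines are day means and bars are 1 SD. Day 30 replicates 3, 4 and 5 are the 3 highest libraries in both panels.

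For the test of each gene, expected counts were rounded, scaled by TMM (trimmed mean of M values) and fitted in edgeR with 1 mean per day; a gene was called at a Benjamini-Hochberg adjusted p below 0.05 over all 17838 genes tested. Values per library below are CPM, counts scaled by the TMM-adjusted library total. Of the 83 members tested, 32 were higher and 0 lower on day 45 than on day 21, where 27.1% of all genes tested were called higher and 30.5% lower. The fold change was positive for 76 of the 83. Their median log2 fold change was 0.34, against -0.05 over all genes, so the members lay 0.40 above the median gene. The 38.6% of members higher exceed the share over all genes, and the 0 lower fall short of it. By class, 2 of 3 stalk members, 17 of 43 large subunit members, 11 of 31 small subunit members and 2 of 6 paralogs rose. With day 21 replicate 3 left out, 14 members were higher, and with day 21 replicate 2 left out, 21 were. Those 2 counts are not set against the shares over all genes in the same fits. The count was 57 higher and 2 lower (RPSA and RPL22L1) when day 30 was represented by replicates 1 and 2 alone, which narrows the shared spread; 28.1% and 33.6% of the 18509 genes then tested were called.

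The direction of the family itself depended on the scale. In limma on log2(TPM + 1), 3 members, RPL36 and RPL17 among them, were higher and 14 lower on day 45 than on day 21, where 12% and 48.9% of all genes were called. The median over all genes was -0.34 on that scale and -0.66 when libraries were scaled by their totals alone. Relative to the median of all genes, the member median was 0.25 higher in limma on TPM and 0.40 higher with library totals. Over the main fit and 28 alternatives it was 0.24 to 0.45 above the median gene in all 29. A change of library scaling moves members and all genes alike, so such fits had to give nearly the same difference. Another 14 of the fits only left out 1 library, so the 29 are not separate checks.

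**Figure D3:**
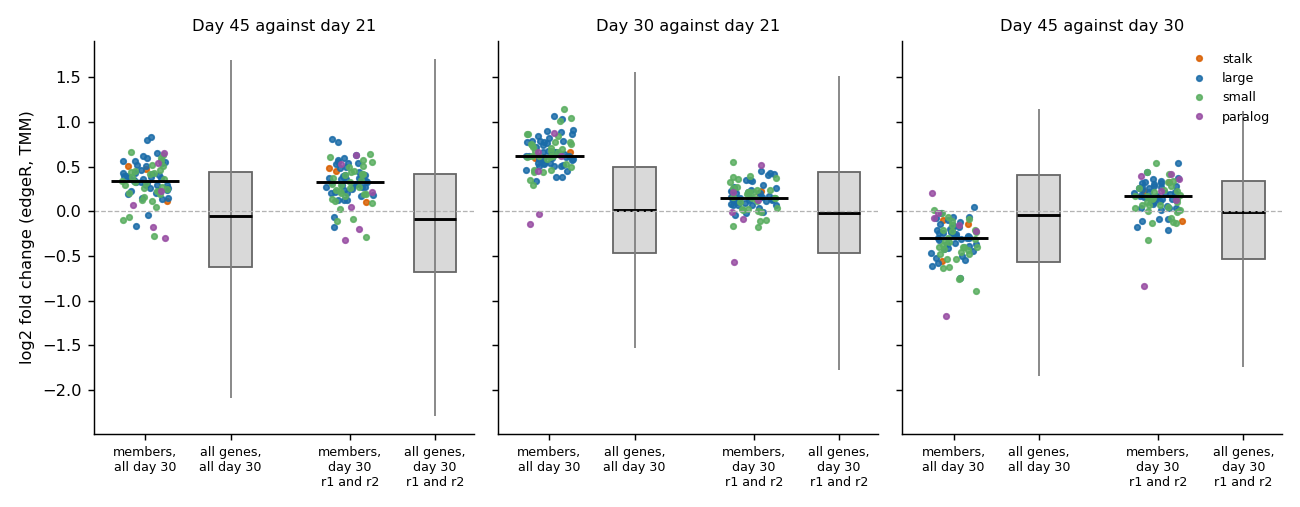
Fitted log2 fold changes (edgeR, TMM) of the 83 members tested, as points coloured by class, beside all genes tested, as boxes from the lower to the upper quartile with lines from the 5th to the 95th percentile. Black bars are medians, and each panel shows the fit with all day 30 libraries (left) and with day 30 replicates 1 and 2 alone (right). The member median lies at 0.34 and 0.32 on day 45 against day 21, at 0.62 and 0.15 on day 30 against day 21, and at -0.30 and 0.17 on day 45 against day 30.

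The P stalk recruits the GTPases of translation to the large subunit. RPLP0, its base, had 1558, 1465, 1224 and 1543 CPM on day 21, 1765, 1630.3, 2476, 2617 and 2559.9 CPM on day 30, and 1941, 2055, 2205, 1818 and 2017 CPM on day 45. All day 45 libraries were above all day 21 libraries, and the log2 fold change on day 45 against day 21 was 0.47 ± 0.15 (SE; edgeR adjusted p = 0.0112). On CPM, 48 of the 83 members and 25.4% of all genes lay wholly higher on day 45 in this way, and 0 members and 26.2% of genes wholly lower. On TPM, 4 members lay wholly higher and 15 wholly lower, against 10.9% and 42.8% of all genes, so such separation depends on the scale. RPLP2 averaged 422 ± 18.5 CPM on day 45 and 297 ± 44.5 CPM on day 21 (SD, n = 5 and 4), with a log2 fold change of 0.50 ± 0.15 (SE; edgeR adjusted p = 0.00986). RPLP1, its partner in the stalk dimers, had 761, 838, 895, 826 and 741 CPM on day 45 and 788, 714, 645 and 846 CPM on day 21, and its groups overlapped. The log2 fold change of RPLP1 was 0.12 ± 0.16 (SE; edgeR adjusted p = 0.542). In limma on log2(TPM + 1) the same contrast was 0.02 for RPLP0, 0.07 for RPLP2 and -0.24 for RPLP1, and none passed.

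In the large subunit, RPL36 (ENSG00000130255, chr19:5674947-5691876, plus strand) and RPL17 (ENSG00000265681, chr18:49488453-49492523, minus strand), which lies near the exit of the peptide tunnel, had the largest increases on day 45 against day 21. RPL36 had 195, 173, 143 and 204 CPM on day 21, 209, 223, 358, 398 and 350.2 CPM on day 30, and 291, 346, 322, 307 and 324 CPM on day 45. Every day 45 library exceeded every day 21 library, with a log2 fold change of 0.83 ± 0.17 (SE; edgeR adjusted p = 0.000504), and of 0.41 ± 0.11 (SE; limma adjusted p = 0.00344) on log2(TPM + 1). RPL17 had 588, 506, 425 and 562 CPM on day 21, 604, 715, 932, 1268 and 1066 CPM on day 30, and 841, 919.6, 894, 945 and 916 CPM on day 45. Its groups on days 45 and 21 did not overlap either, and the log2 fold changes were 0.80 ± 0.17 (SE; edgeR adjusted p = 0.000795) and 0.37 ± 0.11 (SE; limma adjusted p = 0.00691). RPL26, a target of UFMylation on ribosomes stalled at the endoplasmic reticulum, averaged 729 ± 65.3 CPM on day 45 and 465 ± 74 CPM on day 21, with a log2 fold change of 0.65 ± 0.19 (SE; edgeR adjusted p = 0.00766). RPL5, which with RPL11 and 5S rRNA forms the particle that binds MDM2, had a log2 fold change of 0.42 ± 0.15 (SE; edgeR adjusted p = 0.0203); without day 21 replicate 3 its adjusted p was 0.0688. On log2(TPM + 1), RPL26 was at 0.22 ± 0.12 (SE; limma adjusted p = 0.108) and RPL5 at -0.03 ± 0.10 (SE; limma adjusted p = 0.792), so neither call held there. RPL31 had a log2 fold change of 0.57 ± 0.20 (SE; edgeR adjusted p = 0.0244), and of 0.18 ± 0.14 (SE; limma adjusted p = 0.252) on log2(TPM + 1). RPL11 did not pass, at 0.15 ± 0.18 (SE; edgeR adjusted p = 0.498).

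A further 6 large subunit members did not pass on day 45 against day 21. RPL3, close to the peptidyl transferase centre, had a log2 fold change of 0.20 ± 0.13 (SE; edgeR adjusted p = 0.188) on day 45 against day 21. RPL10, which joins late in assembly, had 0.29 ± 0.14 (SE; edgeR adjusted p = 0.0852), RPL23 had 0.33 ± 0.17 (SE; edgeR adjusted p = 0.1) and RPL41, the shortest peptide of the ribosome, had 0.39 ± 0.22 (SE; edgeR adjusted p = 0.139). RPL13A, also part of the interferon-gamma activated inhibitor of translation complex, was at -0.04 ± 0.16 (SE; edgeR adjusted p = 0.824). RPL10A (ENSG00000198755, chr6:35468408-35470785, plus strand), the protein of the L1 stalk next to the tRNA exit site, was at -0.16 ± 0.14 (SE; edgeR adjusted p = 0.351).

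In the small subunit, RPS2, at the mRNA entry channel, averaged 1474 ± 251 CPM on day 45 and 953 ± 105 CPM on day 21 (0.63 ± 0.15 SE, edgeR adjusted p = 0.00205). RPS27A, made as a fusion with ubiquitin, had a log2 fold change of 0.45 ± 0.17 (SE; edgeR adjusted p = 0.033), and its adjusted p passed 0.05 in 9 of 14 fits that left out 1 library; the fits without day 21 replicate 2 or 3 or day 45 replicate 3, 4 or 5 gave 0.0511 to 0.102. On log2(TPM + 1), RPS2 (0.18 ± 0.13 SE, limma adjusted p = 0.231) and RPS27A (0.01 ± 0.14 SE, limma adjusted p = 0.955) did not pass. RPS6, the substrate of S6 kinase, had a log2 fold change of 0.37 ± 0.17 (SE; edgeR adjusted p = 0.081), RPS19, often mutated in Diamond-Blackfan anaemia, 0.28 ± 0.17 (SE; edgeR adjusted p = 0.176), and RPS3, which also acts in DNA repair, 0.19 ± 0.17 (SE; edgeR adjusted p = 0.336). The X-linked RPS4X was at 0.21 ± 0.15 (SE; edgeR adjusted p = 0.24). These 4 did not pass.

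RPSA (ENSG00000168028, chr3:39406689-39412542, plus strand), also known as the precursor of a laminin receptor, was 1 of 7 members with a negative fold change on day 45 against day 21, none of which passed. It had 849, 802, 669 and 829.7 CPM on day 21, 720.1, 697, 1056, 1231 and 1319 CPM on day 30, and 664, 616, 708, 628 and 646 CPM on day 45. All day 45 libraries other than replicate 3 were below all day 21 libraries. The log2 fold change was -0.27 ± 0.17 (SE; edgeR adjusted p = 0.172) in the fit with all libraries, -0.29 ± 0.09 (SE; edgeR adjusted p = 0.0076) with day 30 replicates 1 and 2 alone, and -0.71 ± 0.11 (SE; limma adjusted p = 5.66e-05) on log2(TPM + 1). RPS9, at the mRNA entrance, had a log2 fold change of -0.09 ± 0.15 (SE; edgeR adjusted p = 0.6246) on the CPM scale and -0.55 ± 0.11 (SE; limma adjusted p = 0.000313) on log2(TPM + 1).

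On day 30 against day 21, 78 members were higher and 0 lower, where 27.2% of all genes tested were called higher and 27.1% lower. The median log2 fold change was 0.62, against 0.02 over all genes. All 3 stalk members, all 43 large subunit members, 28 of 31 small subunit members and 4 of 6 paralogs rose. RPS3A, RPL39, RPS18, RPL31 and RPS21 had the largest values. RPS3A, at the platform of the small subunit, had 936, 917, 818 and 797 CPM on day 21, 1209, 1345, 1555, 2659.8 and 2821 CPM on day 30, and 982, 999.8, 1039, 980.1 and 1151 CPM on day 45. The day 30 libraries were all above the day 21 libraries, and replicates 4 and 5 were the highest of all 14; the log2 fold change was 1.15 ± 0.21 (SE; edgeR adjusted p = 0.000251). RPS18, at the head of the small subunit, averaged 1917 ± 731 CPM on day 30 and 926 ± 118 CPM on day 21 (1.05 ± 0.21 SE, edgeR adjusted p = 0.000501). RPL31, at the tunnel exit, averaged 1025 ± 365 CPM on day 30 and 499 ± 83.5 CPM on day 21 (1.04 ± 0.21 SE, edgeR adjusted p = 0.000467), and RPS21 averaged 306 ± 127 CPM on day 30 and 152 ± 28.6 CPM on day 21 (1.01 ± 0.24 SE, edgeR adjusted p = 0.00217). The 5 members that did not pass were RPS26 (0.46), RPSA (0.35), RPS19 (0.30), RPL39L (-0.03) and RPL7L1 (-0.14).

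Most of this difference came with day 30 replicates 3 to 5. With day 30 replicates 1 and 2 alone, 14 members were higher and 1, RPL39L, lower on day 30 than on day 21, where 19.6% and 21.7% of all genes were called, and the median log2 fold change was 0.15. These 16.9% of the members higher are close to the share over all genes, while fewer were lower. RPS3A remained among the 14, at 0.55 ± 0.11 (SE; edgeR adjusted p = 0.000709), and so did RPL22L1 (0.52), RPL31 (0.42), RPL39 (0.41) and RPS18 (0.40). RPS21 was at 0.24 ± 0.15 (SE; edgeR adjusted p = 0.209). In limma on log2(TPM + 1) over all libraries, 10 members were higher and 2 (RPL7L1 and RPL39L) lower, where 10% and 50.6% of all genes were called; the median was 0.13 for the members and -0.35 for all genes. Other genes whose length lay between the member quartiles, 530 to 827 bases, had a positive median too: the median log2 fold change of those 947 genes was 0.46 with all day 30 libraries, and that of the 1028 genes tested with replicates 1 and 2 alone was 0.09. The members lay 0.17 and 0.06 above these genes of like length. With a fit that removes a trend with length, the member median was 0.21 for day 30 against day 21.

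On day 45 against day 30, 25 members were lower and 1, RPL7L1, higher, where 28.7% of all genes tested were called lower and 27.6% higher. The members lower made up 30.1%, near the share over all genes, while fewer were higher. The member median was -0.30, against -0.04 over all genes. The 947 other genes of like length had a median of -0.41, and 38.8% of them were lower. The members thus lay 0.11 above genes of like length, though below the median of all genes. RPS3A (-0.90 ± 0.20 SE, edgeR adjusted p = 0.00106), RPS18 (-0.75 ± 0.20 SE, edgeR adjusted p = 0.00367), RPS21 (-0.75 ± 0.22 SE, edgeR adjusted p = 0.00919) and RPL39 (-0.75 ± 0.22 SE, edgeR adjusted p = 0.00781) fell most among the core members. RPLP1 (-0.55), RPL11 (-0.52), RPS6 (-0.40), RPS4X (-0.45) and RPSA (-0.62) also fell. At the other end, RPL36 (0.05), RPS2 (0.02), RPL36AL (-0.01) and RPS19 (-0.02) lay near 0 and did not pass. The count of members lower was 12 without day 30 replicate 5, 13 without replicate 4, 44 without replicate 2 and 51 without replicate 1. Shares over all genes in those fits are not given, so these swings show no trait particular to the members. With day 30 replicates 1 and 2 alone, the direction turned: 10 members were higher and 2 lower, where 19.6% of all genes were called higher and 19.3% lower, and the median was 0.17. RPS27 (0.54), RPL36 (0.54), RPL17 (0.44) and RPS19 (0.44) led the 10, and RPL22L1 (-0.83) and RPS3A (-0.32 ± 0.10 SE, edgeR adjusted p = 0.0235) were the 2. In limma on log2(TPM + 1), 28 were lower and 1 higher, where 23.3% and 27.1% of all genes were called; the median was -0.19 for the members and 0.01 for all genes. Removing a trend with length gave a median of 0.16, and placing day 45 replicate 1 at day 30 gave -0.23. RPS3A and RPL22L1 were thus lower on day 45 than on day 30 with and without day 30 replicates 3 to 5; with those left out and the length trend removed, the edgeR adjusted p of RPS3A was 0.213.

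Shares within the family do not rest on how libraries are scaled to one another, because each gene is read as a share of the summed member counts. The calls do rest on the fit, whose estimate of spread and adjustment draw on all genes tested. This fit was chosen after earlier results were seen. Scaled in this way, 2 members lay above the family (RPL36 and RPL17) and 7 below it (RPL22L1, RPSA, RPL39L, RPL10A, RPS9, RPS12 and RPL13A) on day 45 against day 21, where 10.7% of all genes were called higher and 38.5% lower. RPSA made up 1.72, 1.78, 1.78 and 1.71% on day 21, 1.42, 1.33, 1.39, 1.35 and 1.56% on day 30, and 1.21, 1.07, 1.21, 1.15 and 1.11% on day 45 (each a share of the member counts). The groups of days 45 and 21 did not overlap, and the log2 difference on day 45 against day 21 was -0.61 ± 0.13 (SE; edgeR adjusted p = 0.00101). RPL10A made up 1.13, 1.15, 1.17 and 1.16% on day 21, 1.05, 0.963, 0.967, 0.935 and 0.915% on day 30, and 0.847, 0.848, 0.817, 0.799 and 0.778% on day 45. Its shares were below every day 21 value in all 5 day 45 libraries, with a log2 difference of -0.49 ± 0.13 (SE; edgeR adjusted p = 0.00404). RPS9 made up 1.11, 1.2, 1.19 and 1.251% on day 21, 1.12, 1, 1.03, 0.967 and 1.04% on day 30, and 0.967, 0.91, 0.904, 0.784 and 0.85% on day 45. All 5 day 45 shares were below all day 21 shares, with a log2 difference of -0.43 ± 0.13 (SE; edgeR adjusted p = 0.0135). RPS12, at the beak of the small subunit, gave a log2 difference of -0.40 ± 0.13 (SE; edgeR adjusted p = 0.0214), RPL13A -0.38 ± 0.14 (SE; edgeR adjusted p = 0.031) and RPL22L1 -0.64 ± 0.18 (SE; edgeR adjusted p = 0.00811).

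RPL17 made up 1.19, 1.13, 1.13 and 1.16% on day 21, 1.19, 1.36, 1.23, 1.39 and 1.26% on day 30, and 1.54, 1.59, 1.53, 1.74 and 1.57% on day 45 of the summed counts. All day 45 shares were above all day 21 shares, with a log2 difference of 0.47 ± 0.13 (SE; edgeR adjusted p = 0.00746). RPL36 made up 0.396, 0.386, 0.38 and 0.42% on day 21, 0.413, 0.425, 0.471, 0.438 and 0.416% on day 30, and 0.532, 0.598, 0.55, 0.565 and 0.556% on day 45, and again all day 45 shares were above all day 21 shares, with a log2 difference of 0.50 ± 0.13 (SE; edgeR adjusted p = 0.00434). RPL22L1, RPSA, RPL10A, RPS9, RPL17 and RPL36 were called in all 14 fits that left out 1 library. RPS12 lost its call without day 21 replicate 1 or 4 or day 45 replicate 1, RPL39L without day 21 replicate 2, 3 or 4 or any of day 45 replicates 2 to 5, and RPL13A without any 1 of the day 21 libraries, day 30 replicate 3 or day 45 replicate 2, 3 or 4; the adjusted p was then 0.0503 to 0.0951. With day 30 replicates 1 and 2 alone, all 9 were called again in the same direction, among 12 above and 12 below the family. Limma on log2(TPM + 1), scaled to the summed member TPM, put 11 above, so the number of members called depends on the setting. With day 45 replicate 1 placed at day 30, as its treatment label reads, RPL22L1, RPL13A and RPS12 had edgeR adjusted p of 0.051, 0.0522 and 0.0836, and the other 6 were called.

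**Figure D4:**
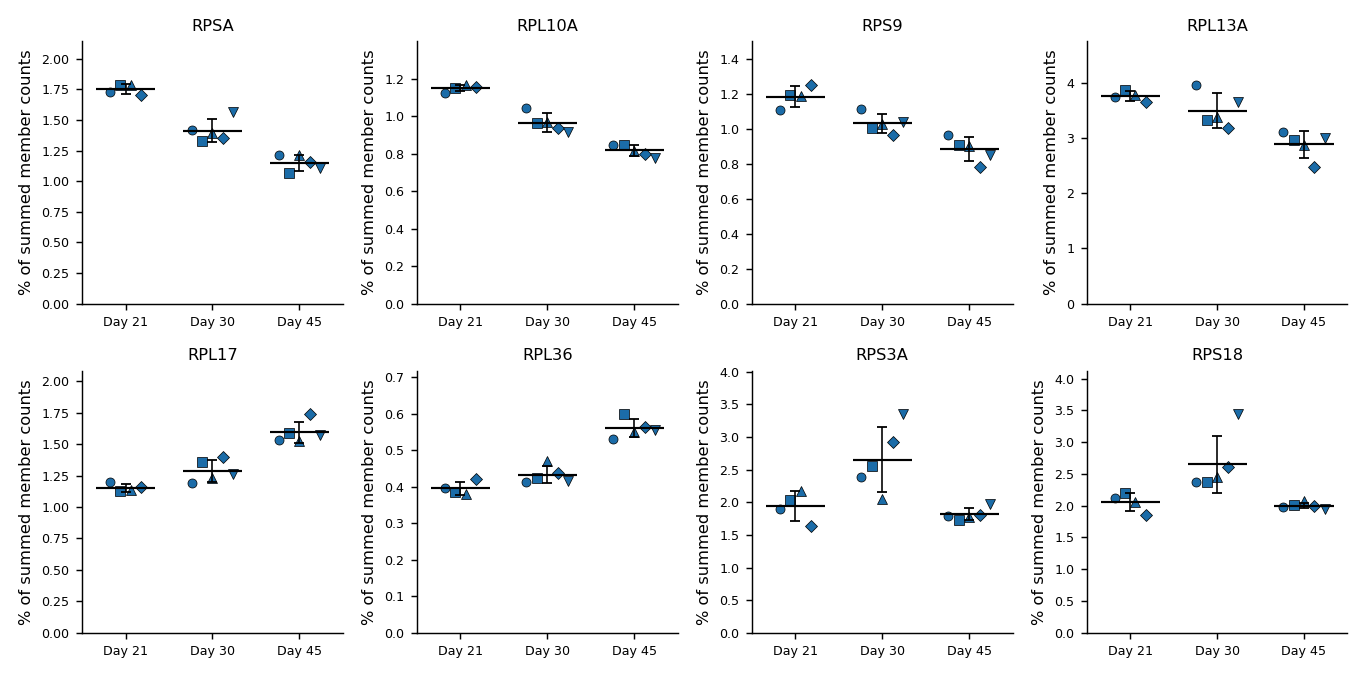
Share of the summed member counts (percent) of 8 genes in each library by day, each panel with its own axis from 0. Points are libraries, lines are day means and bars are 1 SD. The day means of RPSA, RPL10A, RPS9 and RPL13A are lowest on day 45, those of RPL17 and RPL36 are highest on day 45, and those of RPS3A and RPS18 are highest on day 30, with replicate 5 the top library.

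On day 30 against day 21, RPS3A (0.45 ± 0.16 SE, edgeR adjusted p = 0.0265), RPS18 (0.36 ± 0.15 SE, edgeR adjusted p = 0.0476) and RPL31 (0.36 ± 0.14 SE, edgeR adjusted p = 0.0348) lay above the family and RPL7L1, RPL39L and RPS19 below it, where 6.46% of all genes were called higher and 49.3% lower. These 3 and 3 are a smaller share of the members than of all genes. The scaling itself holds the members near 0 and shifts the other genes, so the shares had to lean this way. They show no trait of the members, here or in the other comparisons scaled to the family. RPL7L1 and RPL39L were called in all 14 fits that left out 1 library. With day 30 replicates 1 and 2 alone, RPS3A, RPL39L and RPS19 were called again on day 30 against day 21, while RPL7L1 (edgeR adjusted p = 0.0915), RPL31 (0.0973) and RPS18 (0.128) lost their calls. RPS3A lost its call without day 21 replicate 1 or 4 or day 30 replicate 5, RPL31 without any 1 of the day 21 libraries or day 30 replicate 3 or 4, RPS19 without any 1 of the day 21 libraries or day 30 replicate 3, and RPS18 in all such fits but those without day 30 replicate 1 or 2; the adjusted p was then 0.053 to 0.129. On day 45 against day 30, RPL36 lay above, at 0.37 ± 0.12 (SE; edgeR adjusted p = 0.0232), and RPL22L1, RPS3A and RPS18 below, where 27.1% of all genes were called higher and 13.9% lower. RPS3A gave -0.55 ± 0.15 (SE; edgeR adjusted p = 0.0101) in that contrast, and it and RPL22L1 were called in all 14 such fits. RPL36 lost its call without day 45 replicate 2, and RPS18 without day 30 replicate 5 or day 45 replicate 1, 2, 4 or 5, with an adjusted p of 0.056 to 0.0701. With day 30 replicates 1 and 2 alone, RPL22L1, RPS3A and RPL36 were called again on day 45 against day 30 and RPS18 was not (edgeR adjusted p = 0.0715). With day 45 replicate 1 placed at day 30, none of these 4 was called on day 45 against day 30, at adjusted p of 0.0681 to 0.169. At the stable end, the day means of the shares of RPS23, at the decoding centre, RPL23 and RPL10 had SDs of 0.02 on the log2 scale between days, against 0.45 for RPL22L1 and 0.30 for RPSA. RPL12, RPL15 and RPL27A were at 0.02 too, RPL7L1 was at 0.39 and RPL39L at 0.37. Within days the SDs were 0.055, 0.060 and 0.082 for RPS23, RPL23 and RPL10, larger than between days. They were 0.26 for RPL22L1, 0.076 for RPSA, 0.30 for RPL7L1 and 0.26 for RPL39L.

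Paralogs encode relatives of a core protein, some of which are known to take its place in the ribosome. RPL22L1, the relative of RPL22 whose level RPL22 represses in mouse, had 26.5, 26, 28.2 and 30.7 CPM on day 21, 35.6, 44.6, 42.3, 78.5 and 54.7 CPM on day 30, and 21, 19.7, 20.1, 30 and 22.5 CPM on day 45. All day 30 libraries were above all others, and the day 45 libraries other than replicate 4 were below all day 21 libraries. Its log2 fold change was -1.17 ± 0.18 (SE; edgeR adjusted p = 3.58e-05) on day 45 against day 30, 0.88 ± 0.19 (SE; edgeR adjusted p = 0.000794) on day 30 against day 21 and -0.30 ± 0.18 (SE; edgeR adjusted p = 0.178) on day 45 against day 21. With day 30 replicates 1 and 2 alone, the same contrasts were -0.83 ± 0.14 (SE; edgeR adjusted p = 0.000371), 0.52 ± 0.15 (SE; edgeR adjusted p = 0.0111) and -0.32 ± 0.12 (SE; edgeR adjusted p = 0.0293). In limma on log2(TPM + 1), the rise on day 30 against day 21 was lost, at 0.31 ± 0.15 (SE; limma adjusted p = 0.0776), as it was relative to the family (0.21 ± 0.18 SE, edgeR adjusted p = 0.338), and day 45 against day 21 was lower, at -0.66 ± 0.15 (SE; limma adjusted p = 0.0011). RPL22 itself had 307, 308, 310.3 and 344 CPM on day 21, 310.5, 359, 410.2, 527 and 401 CPM on day 30, and 318, 358, 354, 399 and 388 CPM on day 45. Its log2 fold change was 0.34 ± 0.13 (SE; edgeR adjusted p = 0.0324) on day 30 against day 21, a call lost in 6 of 14 fits that left out 1 library (without day 21 replicate 1, 2 or 3 or day 30 replicate 3, 4 or 5), and 0.19 ± 0.13 (SE; edgeR adjusted p = 0.201) on day 45 against day 21. RPL22L1 made up 19.8 ± 4.98%, 22.4 ± 5.26% and 13.4 ± 1.17% of the TPM of the pair on days 21, 30 and 45.

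RPL36AL, a close copy of RPL36A, had 69.1, 62, 58.8 and 82.3 CPM on day 21, 74.5, 84.3, 121, 153 and 108 CPM on day 30, and 99.2, 100.8, 116, 114 and 105 CPM on day 45. All day 45 libraries were above all day 21 libraries, with a log2 fold change of 0.65 ± 0.17 (SE; edgeR adjusted p = 0.00283). RPS27L, a target of p53, averaged 34.8 ± 7.21 CPM on day 45 and 23.9 ± 2.58 CPM on day 21 and had a log2 fold change of 0.54 ± 0.19 (SE; edgeR adjusted p = 0.0239), while RPS27 averaged 718 ± 81 CPM on day 45 and 476 ± 79.1 CPM on day 21 and had a log2 fold change of 0.59 ± 0.21 (SE; edgeR adjusted p = 0.0243). The call for RPS27L was lost in 5 of 14 fits that left out 1 library (without day 21 replicate 1, 2 or 3 or day 45 replicate 3 or 4) and that for RPS27 in 3 (without day 21 replicate 2 or 3 or day 45 replicate 4). On log2(TPM + 1), RPL36AL, RPS27L and RPS27 did not pass on day 45 against day 21, at 0.22, 0.19 and 0.12. RPL7L1, related to a large subunit assembly factor of yeast, was nearly level, with 127, 127, 127 and 140.1 CPM on day 21, 128, 119, 116, 124 and 103 CPM on day 30, and 126, 137, 147, 144 and 129 CPM on day 45. As a share of the TPM of its pair with RPL7 it made up 4.16 ± 0.197%, 2.51 ± 0.497% and 4.06 ± 0.286%. Its rise on day 45 against day 30 was 0.21 ± 0.08 (SE; edgeR adjusted p = 0.0368), a call lost in 6 of 14 fits that left out 1 library (without day 30 replicate 2, 3 or 5 or day 45 replicate 2, 3 or 4). RPL39L, a paralog of RPL39 best known from the testis, had 5.11, 5.88, 5.33 and 6.06 CPM on day 21, 4.55, 2.98, 6.71, 6.1 and 6.96 CPM on day 30, and 6.12, 5.29, 4.85, 4.48 and 3.96 CPM on day 45. Its groups overlapped, and the log2 fold change on day 45 against day 21 was -0.18 ± 0.20 (SE; edgeR adjusted p = 0.459) on the CPM scale and -0.60 ± 0.16 (SE; limma adjusted p = 0.00416) on log2(TPM + 1). On day 30 against day 21, RPL39L lay at -0.56 ± 0.22 (SE; edgeR adjusted p = 0.0466) with day 30 replicates 1 and 2 alone, and at -0.70 ± 0.19 (SE; edgeR adjusted p = 0.00581) relative to the family with all libraries. RPL39, in the peptide tunnel, averaged 374 ± 46.5 CPM on day 45 and 299.9 ± 36.3 CPM on day 21 (0.32 ± 0.23 SE, edgeR adjusted p = 0.254). RPL26L1 had a log2 fold change of 0.23 ± 0.18 (SE; edgeR adjusted p = 0.288).

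**Figure D5:**
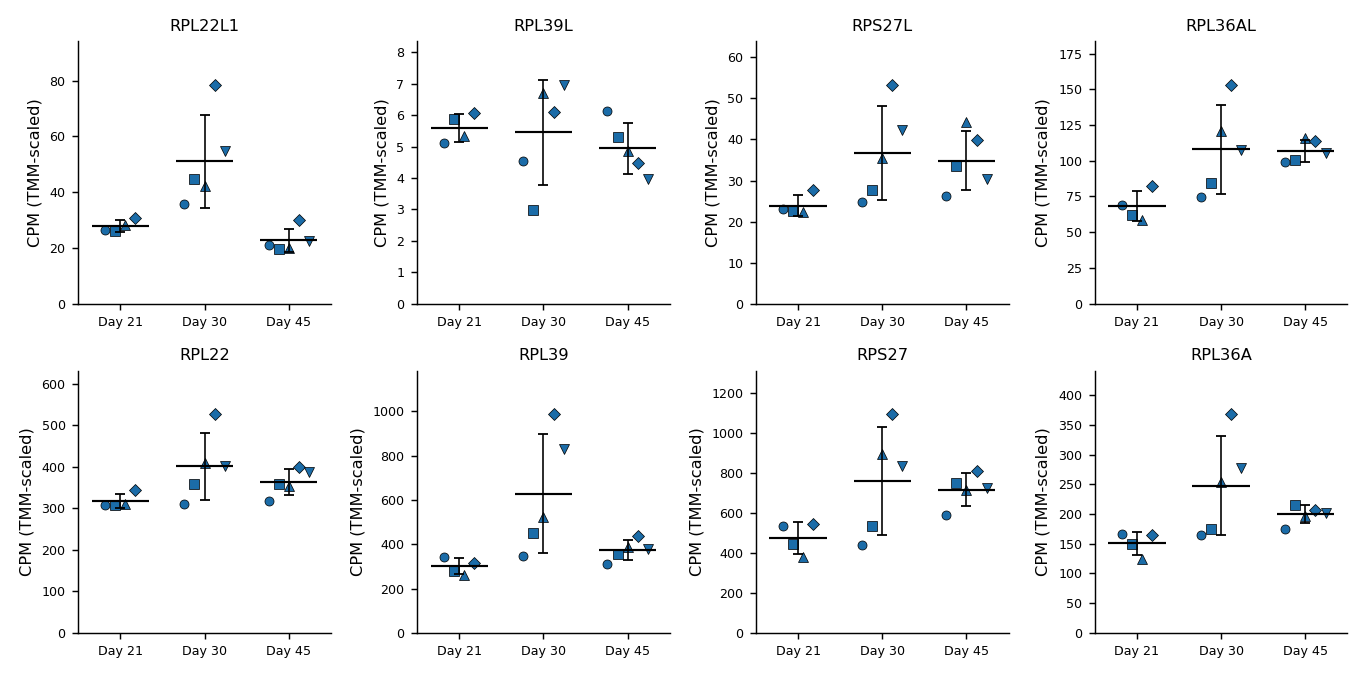
TMM-scaled CPM of 4 paralogs (top row) and of their core partners (bottom row) in each library by day, each panel with its own axis from 0. Points are libraries, lines are day means and bars are 1 SD. All 8 genes have their highest library on day 30; the day mean of RPL22L1 is lowest on day 45, and the libraries of RPL39L overlap between days.

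Read assignment limits some of these values. Coding sequence identity was 94.8% between RPL39L and RPL39, 89.9% between RPL36AL and RPL36A, 84.1% between RPL26L1 and RPL26, 77.8% between RPS27L and RPS27, 68.6% between RPL22L1 and RPL22, and 56.4% between RPL7L1 and RPL7. Of the 50-base windows of their coding sequence, RPL17 shared all, RPSA 87.6%, RPL10A 48.5%, RPS9 33.0%, RPL22L1 4.70% and RPL36 2.30% exactly with other annotated genes. Among the other paralogs tested, the share was 64.8% for RPL7L1, 49.7% for RPL26L1, 36.1% for RPL36AL and 0% for RPL39L and RPS27L. Exact sharing of windows thus did not follow the order of identity with the core gene. The annotation holds 1605 named pseudogenes of the members, which took 1.75 ± 0.00737%, 1.81 ± 0.0290% and 1.89 ± 0.0637% of the summed counts of members and pseudogenes on days 21, 30 and 45. For single genes the pseudogene share was larger: 53.3% for RPL23A, 33.2% for RPL9, 15.9% for RPS2 and 10.1% for RPL36A. The readthrough gene RPL36A-HNRNPH2, which overlaps RPL36A, was listed at 560 to 1086 TPM, so the level of RPL36A is uncertain. RPL17-C18orf32 was listed at 9.26 to 18.8 TPM, against 2113 to 3427 TPM for RPL17. With the pseudogene counts added to their genes, the counts of members called in the 3 comparisons were the same: 32 higher, 78 higher, and 1 higher with 25 lower. The library kit does not mark strand, so antisense reads cannot be told from sense reads.

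Members with and without the start tract gave similar values, and the difference was not tested. On day 45 against day 21 the 47 members with it had a median log2 fold change of 0.34, with 18 higher and 0 lower, and the 20 tested members without it had 0.26, with 7 higher and 0 lower; of all genes, 27.1% were higher and 30.5% lower. Of 21 other translation genes known to carry TOP tracts, 10 (47.6%) were higher and 1 (4.76%) lower on day 45 than on day 21, with a median of 0.30. They were led by EIF3H, a subunit of initiation factor eIF3, with 209.8 ± 10.9 CPM on day 45 and 129 ± 11.1 CPM on day 21 (log2 fold change 0.70 ± 0.10 SE, edgeR adjusted p = 1.11e-05). EEF2, the translocase of elongation, had 4334 ± 698 CPM on day 45 and 2316 ± 227 CPM on day 21 (log2 fold change 0.90 ± 0.14 SE, edgeR adjusted p = 2.66e-05). FAU, made as a fusion with the small subunit protein eS30, had 222 ± 20.8 CPM on day 45 and 143 ± 17.8 CPM on day 21 (log2 fold change 0.63 ± 0.12 SE, edgeR adjusted p = 0.000228). Of these 3, limma on log2(TPM + 1) called EEF2, at 0.45 ± 0.12 SE, limma adjusted p = 0.00313, but not EIF3H (0.20 ± 0.09 SE, limma adjusted p = 0.0539) or FAU (0.19 ± 0.10 SE, limma adjusted p = 0.114). On day 30 against day 21 the median of the list was 0.38 (11 higher, 2 lower), and with day 30 replicates 1 and 2 alone it was 0.06 (5 higher, 1 lower). The first counts are 52.4% and 9.52% of the list, against 27.2% and 27.1% of all genes. The second are 23.8% and 4.76%, against 19.6% and 21.7% of all genes.

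Of 38 ribosome biogenesis factors, 8 were higher and 12 lower on day 45 than on day 21 (median -0.11); these 21.1% and 31.6% are near or below the shares over all genes, 27.1% and 30.5%. On day 30 against day 21, 2 were higher and 18 lower (median -0.22), or 5.26% and 47.4%, against 27.2% and 27.1% of all genes. BOP1, needed for maturation of large subunit rRNA, had 15.3 ± 1.5 CPM on day 45 and 51.1 ± 2.87 CPM on day 21 (log2 fold change -1.74 ± 0.11 SE, edgeR adjusted p = 8.38e-10). SBDS, which frees the joining face of the large subunit, had 63.8 ± 3.06 CPM on day 45 and 35 ± 4 CPM on day 21 (log2 fold change 0.87 ± 0.09 SE, edgeR adjusted p = 4.86e-07), and RRP12, a ribosome export factor, rose as well (log2 fold change 0.67, edgeR adjusted p = 6.03e-06), but not in limma on log2(TPM + 1), at 0.06 ± 0.12 SE, limma adjusted p = 0.658. Of 11 genes of RNA polymerase I and its factors, 3 (27.3%) were higher and 5 (45.5%) lower on day 45 than on day 21 (median -0.29). UBTF, which binds the rRNA genes, had 65 ± 2.79 CPM on day 45 and 113 ± 7.21 CPM on day 21 (log2 fold change -0.80 ± 0.08 SE, edgeR adjusted p = 1.54e-07), and the subunits POLR1B (log2 fold change -0.82, edgeR adjusted p = 1.07e-06) and POLR1A (log2 fold change -0.73, edgeR adjusted p = 7.92e-06) fell too. The summed cycling-cell markers were also lower on days 30 and 45 than on day 21, as given above, and their part in these lists was not tested.

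Of 24 other translation factors, 14 (58.3%) were higher and 0 lower on day 45 than on day 21 (median 0.34), led by EIF2S2 (log2 fold change 1.02, edgeR adjusted p = 4.46e-08), EIF1 (log2 fold change 1.34, edgeR adjusted p = 1.12e-07) and EIF5 (log2 fold change 0.93, edgeR adjusted p = 9.92e-07), all initiation factors. Of 17 regulators in the MYC and mTOR pathways, 9 (52.9%) were higher and 3 (17.6%) lower (median 0.26). DDIT4, an inhibitor of mTOR complex 1, had 387 ± 60 CPM on day 45 and 78.3 ± 26.7 CPM on day 21 (log2 fold change 2.31 ± 0.19 SE, edgeR adjusted p = 1.7e-08). EEF2K, the kinase that inhibits EEF2, and SESN2, a stress-induced inhibitor of mTOR signalling, rose (log2 fold change 1.41, edgeR adjusted p = 1.67e-08, and log2 fold change 1.28, edgeR adjusted p = 5.85e-06). MYC, a driver of ribosome production, had 27.2 ± 1.33 CPM on day 45 and 39.8 ± 4.5 CPM on day 21 (log2 fold change -0.55 ± 0.10 SE, edgeR adjusted p = 0.000254); it was named after its values were seen. The mitochondrial ribosomal protein genes were taken by MRPL or MRPS symbol alone, without a check of what each protein does. Of these 78 genes, 23 were higher and 8 lower on day 45 than on day 21, with a median of 0.12, against 0.34 for the cytoplasmic genes. The 29.5% higher are near the 27.1% over all genes, and the 10.3% lower are fewer than its 30.5%. Among the genes with these symbols, MRPL2 (log2 fold change 0.81, edgeR adjusted p = 1.07e-05) and MRPS36 (log2 fold change 0.91, edgeR adjusted p = 3.94e-05) rose and MRPS25 (log2 fold change -0.77, edgeR adjusted p = 1.94e-05) fell. In limma on log2(TPM + 1), the calls were 2 higher and 7 lower of the TOP genes, 2 and 27 of the biogenesis factors, 0 and 6 of the polymerase I genes, 3 and 8 of the other factors, 4 and 6 of the regulators and 3 and 44 of the mitochondrial genes, so these counts depend on the scale as those of the members do. On that scale 12% of all genes were called higher and 48.9% lower. In the same order, the shares lower were 33.3, 71.1, 54.5, 33.3, 35.3 and 56.4%. The shares higher were 9.52, 5.26, 0, 12.5, 23.5 and 3.85%.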

How the data were processed

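Bulk RNA-seq data of 14 libraries were used. Per the labels' protocols, the RNeasy micro kit served for RNA extraction and the TruSeq RNA Library Prep Kit v2 for the libraries. STAR 2.4.2a, RSEM 1.2.25 and GRCh38 are named in the submitters' processing notes, and the sources used here do not give the release of the gene annotation. The deposited expected counts are RSEM estimates per gene, which divide reads that map to several genes, and the deposited TPM are the same estimates scaled by length and library, per the file headers. Precision is limited by the number of libraries and, for the low paralogs, by counting error; library totals are given in the report.

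Expected counts were rounded and tested in edgeR 4.0.16 (R 4.3.3) with quasi-likelihood fits, TMM scaling, filterByExpr, 1 mean per day over all 14 libraries and Benjamini-Hochberg adjustment over all genes tested. CPM were computed from the deposited counts, and log2(TPM + 1) from the deposited TPM for limma 3.58.1. Alternatives used DESeq2 1.42.0, other filters, pseudocounts, library scalings, the replicate numbers as a block, an offset for gene length, day 30 replicates 1 and 2 alone, day 45 replicate 1 placed at day 30, pseudogene counts added, and each library left out in turn. Fits relative to the summed member counts and alternatives combined with day 30 replicates 1 and 2 were chosen after the data were seen. The scripts were tested on simulated data. Gene coordinates came from GENCODE 29 (GRCh38) and start regions from RefSeq (GRCh38.p14), matched by symbol.

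The members and lists were chosen with earlier results of these data known. Named genes were 16 members chosen by role, the paralogs with their partners, the 5 highest and 5 lowest members of each comparison, members that did not pass the filter, and up to 3 genes of each other list with the smallest adjusted p on day 45 against day 21. Samples were grouped by title. The values of 1 member that this rule names are not reported here.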

Additional observations from a re-analysis of the deposited data

Results flagged for a closer look

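In 8 of 114 groups of libraries, 1 library's TPM lay apart from the rest of its day; chance alone sets apart about 1 group in 20. On day 21, replicate 3 had the lowest TPM of RPL10 (5299.7 against 6142.1 to 6201.2), RPL10A (1970.4 against 2135.7 to 2142.4), RPL3 (2735.7 against 3083.7 to 3139.3) and RPLP2 (2258.6 against 2536.7 to 2588.6). Summed member TPM was lowest of day 21 in that library too, at 193794 against 213826 to 222053 in the others. The groups flagged for it are thus not independent of one another. Day 21 replicate 4 had the highest TPM of RPL26L1 (64.4 against 57.4 to 58.2) and of RPL36AL (343.5 against 284.6 to 294.4). On day 45, replicate 1, whose treatment label reads 30 days, had the lowest TPM of RPS6 (1610.6 against 1868.4 to 1913.2), and replicate 3 had the highest TPM of RPSA (1153.1 against 1049.3 to 1068.5).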

How the results depend on the processing

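Relative to the median of all genes, the member median stayed positive in all 29 values for day 45 against day 21 (0.24 to 0.45) and all 29 for day 30 against day 21 (0.029 to 0.72), and was -0.36 to 0.31 for day 45 against day 30, positive in 4. A shift of a whole library cancels in these differences, so fits that changed the library scaling alone could not alter them much. Scaled by library totals, members called higher and lower were 0 and 22 (median -0.26) on day 45 against day 21, 13 and 1 (0.27) on day 30 against day 21, and 0 and 65 on day 45 against day 30; fold changes turned for RPL5 (-0.18), RPLP0 (-0.13), RPLP2 (-0.10), RPS27 (-0.000982), RPS27A (-0.14) and RPS27L (-0.053) on day 45 against day 21, RPL22 (-0.021) on day 30 against day 21 and RPL7L1 (-0.021) on day 45 against day 30. With limma on log2(TPM + 1) or log2(TPM + 0.1) they were 3 and 14 (-0.087, RPL5 -0.033), then 10 and 2 (0.13). Fits of only the 2 days compared gave 59 and 2 on day 45 against day 21, and 0 higher on day 45 against day 30, as did no filter. Day 30 replicates 1 and 2 alone gave 57 and 2, 14 and 1 (0.15, 0.17 relative) and 10 and 2 (0.17, 0.17 relative). The length offset gave 61 higher, 28 and 1 (0.21, 0.19 relative) and 28 and 4 (0.16, 0.13 relative). Both replicates alone with limma gave 8 and 25 (-0.087, RPL5 -0.033), 0 and 8 (-0.10, 0.14 relative, RPL22 -0.32) and 5 and 8 (0.014, 0.077 relative). Both replicates alone with the length offset gave 67 and 1, 6 and 1 (0.045, 0.029 relative, RPL22 -0.0066) and 48 and 1 (0.36, 0.31 relative, RPL39 0.14, RPS18 0.093, RPS21 0.26). Day 45 replicate 1 placed at day 30 gave 0 and 6 on day 45 against day 30. The cause of these changes was not tested. Of these settings, only limma on log2(TPM + 1) and day 30 replicates 1 and 2 alone have shares of all genes given above. The other counts of members called in alternative fits, here, below and in the Results, are not set against all genes. They show no trait particular to the members.

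The replicate block gave 24 and 1, 69 and 0, and 1 and 17. The labels do not say that the numbers pair the libraries. In their deviations from the day means, 13 same-numbered pairs correlated at -0.0983 to 0.134, and 2 exceeded 0.1. Pairs with different numbers are not given beside them, so this does not decide whether libraries were paired. Leaving out 1 library gave 14 to 41 higher and 0 lower on day 45 against day 21 (median 0.26 to 0.39, 0.31 to 0.45 relative), 67 to 81 and 0 on day 30 against day 21 (0.53 to 0.74, 0.51 to 0.72 relative), and 0 to 1 and 12 to 51 on day 45 against day 30 (-0.40 to -0.18, -0.36 to -0.15 relative). The share of counts was then 5.59 to 5.995%, 6.51 to 7.65% and 4.66 to 4.90% on days 21, 30 and 45; as a share of TPM it was 21.1, 23.5 and 20.2%.

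Relative to the family, leaving out 1 library gave 2 to 4 above and 4 to 7 below, 0 to 5 and 2 to 5, and 0 to 3 and 2 to 8. Day 30 replicates 1 and 2 alone gave 12 and 12, 1 above on day 30 against day 21, and 5 above on day 45 against day 30. Limma gave 11 above, 5 and 10, and 11 and 12. Day 45 replicate 1 placed at day 30 gave 4 below, 0 above, and 0 and 0, where RPS3A, RPL36, RPS18 and RPL22L1 were no longer called; the block gave 1 above on day 30 against day 21. Of 473 such values, 358 stayed on the same side or within the spread; of 1789 values for single genes, 1511 did, 158 lost a call, 104 gained one and 16 turned. At this depth, RPL3L and RPL10L were too low to test.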
